A study of Mus musculus with 12 samples.

Results

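Cell cycle and proliferation genes were followed as a set of 36 gene symbols among the 24452 in the deposited count table, in all 12 libraries. The set was listed by name, from the machinery of DNA replication (8 genes), nucleotide synthesis (2), entry into S phase (3) and mitosis (23). It was chosen with earlier results of these data known, so its counts of called genes describe the set only. RNA came from kidney cortex of adult C57BL/6 mice labelled male and was sequenced as stranded mRNA libraries. The 4 labelled groups held 3 libraries each: Control_water, Control_captopril, GN_water and GN_captopril. GN, glomerulonephritis, was induced over 6 weeks with 10 mg of horse spleen apoferritin, a foreign protein that deposits as immune complexes, given 5 times weekly, and with 100 micrograms of LPS given 3 times weekly. Controls had saline, and tissue was taken in week 9. Captopril inhibits angiotensin-converting enzyme, and the labels give no dose for it. Library titles carry pairs of consecutive numbers, and whether 1 mouse or a pool went into a library is not stated in the labels, so p-values measure only the spread between these libraries. The question was how replication genes and mitosis genes stood in diseased cortex, with and without captopril.

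Dividing cells use these genes in a fixed order. Cyclin E and the E2F factors start S phase, the ring of Mcm proteins unwinds DNA, Pcna clamps the polymerase, and ribonucleotide reductase and thymidylate synthase supply nucleotides. Cdk1 with cyclins A and B then drives mitosis until the anaphase-promoting complex ends it. Adult kidney cells divide rarely, while injured tubule cells and infiltrating leukocytes can divide.

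Several properties of the libraries bear on what follows. Total counts ran from 14.2 to 22.8 M (mega) per library. The Y-linked transcripts Ddx3y, Kdm5d, Uty and Eif2s3y summed to between 121 and 144 CPM (counts scaled per M of the library total, adjusted by TMM) in Control_water and GN_captopril, and to at most 0.101 CPM in Control_captopril and GN_water. Xist, the RNA of the silenced X chromosome, stood at 181 to 375 CPM in Control_captopril and GN_water and at no more than 0.182 CPM in the other 6 libraries, against the label male. A comparison of 2 groups that share a drink or a disease label therefore also sets Y-bearing against Xist-bearing libraries, and the 2 differences cannot be told apart. GN averaged over water and captopril, and captopril averaged over disease, are balanced for these markers. Ren1, the renin gene, is known to rise under inhibition of angiotensin-converting enzyme. It averaged 1340 ± 394 CPM (SD, n = 3) in Control_water but 74.8 ± 10.1 CPM in Control_captopril. Ren1 was also high in GN_captopril and low in GN_water, so it followed the split of the sex-linked markers. Its order went against the drink labels in the controls and with them in GN. The group names below are therefore read as labels only. Adrenal cortex markers (8 genes, summed) reached 355 CPM in Control_captopril replicate 3 and 119 CPM in GN_captopril replicate 3. Replicate 2 of GN_water had the highest value of its group for 35 of the 36 genes and the highest of all 12 libraries for 31. Its B and plasma cell markers (7 genes, summed) stood at 709 CPM, beside 236 and 209 CPM in the other GN_water libraries. Results that rest on it are given with and without it.

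Mitosis genes were higher in GN cortex, and replication genes were higher by less on the log2 scale. With GN averaged over water and captopril, 29 of the 36 genes rose and 1 fell, against 16.3% higher and 14.6% lower among the 14618 genes tested (edgeR quasi-likelihood test, adjusted p under 0.05 after the Benjamini-Hochberg method). The median log2 fold change was 1.09 over the 23 mitosis genes, of which 20 rose, and 0.38 over the 8 replication genes, of which 7 rose. Over all genes tested the median was -0.01. The counts of genes called in each role and class below stand beside the same 16.3% higher and 14.6% lower. Upper-quartile factors in place of TMM moved the split of all genes from 2378 higher and 2138 lower to 2762 and 1383, and the counts of members stayed within 1.5 times. All 36 genes passed the filter on low counts, and Bub1 and Ccne1 passed it through the GN libraries, having fewer than 3 control libraries above 0.523 CPM. In RNA of whole cortex, a larger number of dividing cells and more RNA per dividing cell cannot be told apart. Without GN_water replicate 2, 25 genes rose, and the medians were 0.89 for mitosis and 0.29 for replication. Of the 29 genes, 23 rose in every one of the 19 alternative settings, and the other 6 were Bub1, Ccne1, Cdc20, Mcm2, Mcm7 and Rrm2. A filter of at least 1 CPM in 3 libraries left Bub1 and Ccne1 untested.

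**Figure D1:**
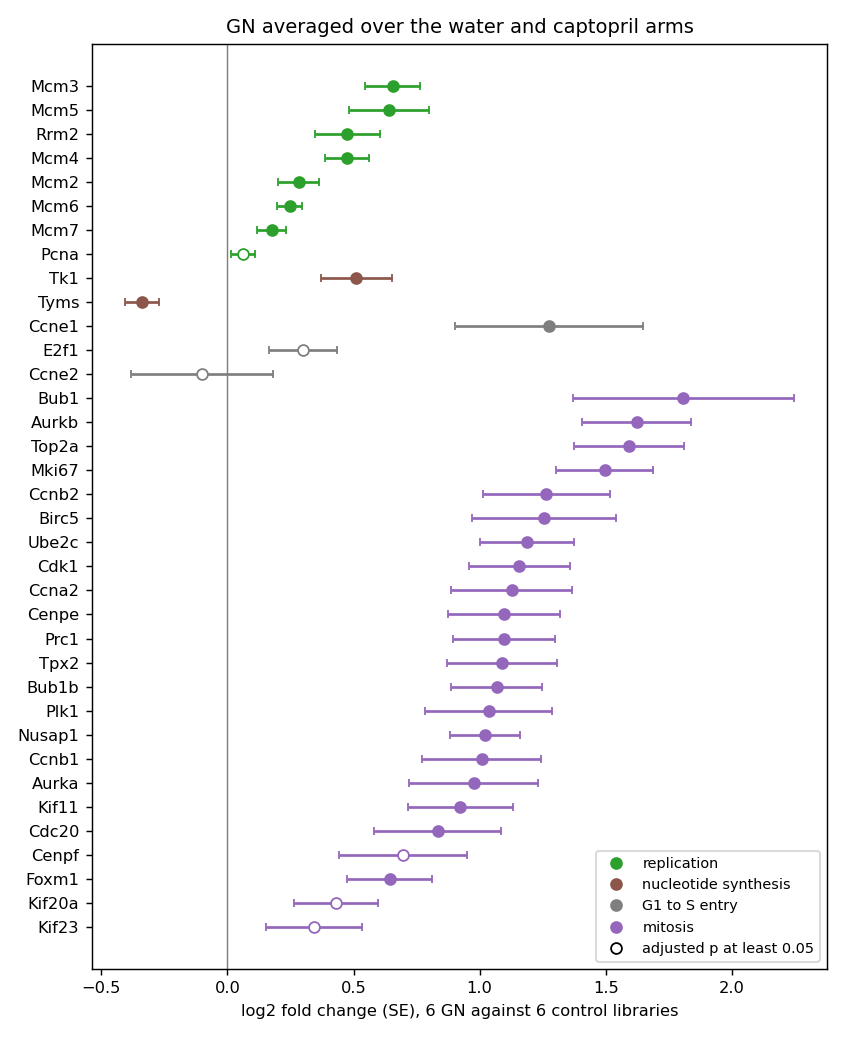
Log2 fold change (points) with its SE (bars) for each gene, 6 GN against 6 control libraries, on the horizontal axis; colours give the functional class and open points did not pass the adjusted p threshold of 0.05. Mitosis genes lie between 0.34 and 1.81, replication genes between 0.06 and 0.66, and Tyms lies at -0.34.

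The promoters of the mitosis and replication classes differed in the short elements they hold. Classes were taken as listed, with genes that were not called included. RefSeq (GRCm38.p6, the build whose coordinates mm10 shares) gave windows of 250 bases before to 50 bases after the start for 29 of the 36 genes. The CHR, the element bound by the DREAM and B-Myb complexes of late cell cycle genes, was searched as TTTGAA or TTCGAA on both strands. It was in 14 of 18 mitosis windows (77.8%), in 2 of 7 replication windows (28.6%) and in 21.7% of the windows of all 27025 genes. CCAAT, the NF-Y element, was in 16 of 18 mitosis windows (88.9%), in 7 of 7 replication windows and in 41.1% of all. An E2F core, searched on both strands as TTCCCGC and as TTCGCGC, and also as TTGGCGC and as TTGCCGC, was in 5 of 7 replication windows (71.4%), in 3 of 18 mitosis windows (16.7%) and in 10.9% of all. A CHR and a CCAAT together were in 77.8% of mitosis windows and in 9.65% of all. Windows of Tyms, Tk1, E2f1 and Ccne1 held none of the 3 elements. The E2f1 and Aurka windows lay wholly within the RefSeq gene models, so bases upstream of their outermost starts were not searched. These are matches of letters, not measured sites, and E2F cores can overlap each other.

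The 5 stretches that follow were picked after the matches were seen, to show both layouts upstream of genes described below. Each starts 200 bases before the start site and stops before the outermost RefSeq gene model. The bases after the start matched an annotated transcript of the gene for Mki67 and Top2a, but not for Kif11, Mcm5 and Mcm6. They read 5′ to 3′ on the strand of the gene, and capitals mark CHR, CCAAT and E2F core matches on either strand. Mki67 shows 3 CCAAT and 2 CHR matches, Top2a 5 and 4, and Kif11 1 of each. Mcm5 shows 3 E2F cores and 1 CCAAT, and Mcm6 4 and 2, with no CHR in either. The Mki67 window also holds 1 E2F core, past the end of the stretch shown.
Mki67 (- strand, chr7:135716451-135716579): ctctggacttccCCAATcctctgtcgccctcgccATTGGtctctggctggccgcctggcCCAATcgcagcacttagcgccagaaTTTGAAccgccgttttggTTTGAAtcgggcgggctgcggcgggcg
Top2a (- strand, chr11:99024200-99024389): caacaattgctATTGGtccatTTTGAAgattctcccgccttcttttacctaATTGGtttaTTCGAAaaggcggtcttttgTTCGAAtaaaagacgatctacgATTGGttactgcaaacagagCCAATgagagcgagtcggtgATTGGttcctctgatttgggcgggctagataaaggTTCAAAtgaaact
Kif11 (+ strand, chr19:37376182-37376381): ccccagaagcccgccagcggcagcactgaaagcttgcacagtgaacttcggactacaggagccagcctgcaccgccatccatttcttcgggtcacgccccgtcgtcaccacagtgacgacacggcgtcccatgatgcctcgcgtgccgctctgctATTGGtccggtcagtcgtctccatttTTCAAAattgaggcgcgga
Mcm5 (+ strand, chr8:75109309-75109467): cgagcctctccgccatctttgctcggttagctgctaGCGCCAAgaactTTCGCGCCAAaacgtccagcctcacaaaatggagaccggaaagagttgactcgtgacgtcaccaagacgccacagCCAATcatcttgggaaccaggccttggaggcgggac
Mcm6 (- strand, chr1:128359706-128359905): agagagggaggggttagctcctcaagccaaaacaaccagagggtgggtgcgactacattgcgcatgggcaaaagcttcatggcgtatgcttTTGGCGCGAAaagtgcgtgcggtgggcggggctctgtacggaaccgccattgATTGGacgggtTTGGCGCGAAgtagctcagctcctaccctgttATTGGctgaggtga

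Genes marking cycling chromosomes rose together. Mki67 (GRCm38.p6 chromosome 7, 135689784 to 135716450) encodes the Ki-67 coat of mitotic chromosomes and is the usual marker of cycling cells. It stood at 3.31, 2.85 and 2.97 CPM in Control_water and at 2.51, 3.55 and 2.58 CPM in Control_captopril. In GN it stood at 8.7, 18.8 and 9.74 CPM in GN_water and at 6.31, 5.21 and 5.38 CPM in GN_captopril. All 6 GN libraries lay above all 6 controls, and GN_water replicate 2 lay far above the rest (log2 fold change 1.49 with SE 0.19 and adjusted p = 7.88e-05). Without that library the value was log2 fold change 1.26 with SE 0.12 and adjusted p = 1.29e-05. Top2a (chromosome 11, 98992947 to 99024199), the topoisomerase that untangles sister chromatids, was at 3.4, 1.82 and 1.48 CPM in Control_water and at 2.42, 2.21 and 2.12 CPM in Control_captopril. Its GN values were 7.42, 13.6 and 7.81 CPM in GN_water and 5.45, 3.68 and 5.67 CPM in GN_captopril. The lowest GN library lay just above the highest control, and the gene rose (log2 fold change 1.59 with SE 0.22 and adjusted p = 0.000124).

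All 5 genes of the mitotic kinase and cyclin group rose. Cdk1, the kinase that drives entry into mitosis, was at 1.58, 0.728 and 0.838 CPM in Control_water and at 1.35, 1.84 and 1.16 CPM in Control_captopril. In diseased cortex it was at 3.8, 5.26 and 3.81 CPM in GN_water and at 2.13, 1.65 and 1.72 CPM in GN_captopril. GN_water stood clear of both control groups, while GN_captopril overlapped Control_captopril (log2 fold change 1.16 with SE 0.20 and adjusted p = 0.00078). Ccnb2, a cyclin B partner of Cdk1, had 0.978, 0.85 and 0.516 CPM in Control_water and 0.583, 0.783 and 0.708 CPM in Control_captopril. Its GN libraries had 1.83, 3.74 and 1.73 CPM in GN_water and 1.46, 1.04 and 1.44 CPM in GN_captopril. Every GN library exceeded every control (log2 fold change 1.26 with SE 0.25 and adjusted p = 0.00212). Foxm1, the transcription factor of the G2 and mitotic programme, measured 1.54, 1.27 and 1.35 CPM in Control_water and 1.17, 1.57 and 1.32 CPM in Control_captopril. It measured 2.47, 4.28 and 2.97 CPM in GN_water and 1.33, 1.48 and 1.44 CPM in GN_captopril. GN_water rose above all others, whereas GN_captopril lay within the control range (log2 fold change 0.64 with SE 0.17 and adjusted p = 0.011). Ccna2, cyclin A, had a log2 fold change of 1.13 ± 0.24 (SE), and Ccnb1, cyclin B, one of 1.01 ± 0.24.

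Of the 6 kinetochore and checkpoint genes 5 rose. Aurkb, the kinase of the chromosomal passenger complex, was counted at 0.559, 0.607 and 0.387 CPM in Control_water and at 0.449, 0.553 and 0.607 CPM in Control_captopril. GN libraries had 1.79, 3.21 and 2.27 CPM in GN_water and 1.33, 0.987 and 1.0 CPM in GN_captopril. Control and GN libraries did not overlap (log2 fold change 1.62 with SE 0.22 and adjusted p = 0.000102). Bub1b, which encodes the checkpoint protein BubR1, was at 1.35, 1.03 and 1.03 CPM in Control_water and at 1.44, 1.8 and 1.77 CPM in Control_captopril. It was at 3.16, 5.92 and 3.66 CPM in GN_water and at 1.86, 2.14 and 1.94 CPM in GN_captopril. The lowest GN_captopril library was only just above the highest control (log2 fold change 1.07 with SE 0.18 and adjusted p = 0.000645). Bub1, a checkpoint kinase, had a log2 fold change of 1.81 ± 0.44, on as few as 1 count in a control library. It passed the filter on low counts through GN libraries, with 0 control and 4 GN libraries above its cutoff, so its call is no support for a rise of the group. Birc5, which encodes survivin, rose by 1.25 ± 0.29, and Cenpe, a kinetochore motor, by 1.10 ± 0.22. Cenpf, a kinetochore protein, did not pass the threshold. Its values were 1.26, 0.607 and 0.774 CPM in Control_water and 0.987, 1.06 and 1.01 CPM in Control_captopril. The GN values were 1.51, 2.75 and 1.68 CPM in GN_water and 1.86, 0.878 and 0.933 CPM in GN_captopril. GN_water lay above all controls and GN_captopril overlapped them (log2 fold change 0.70 with SE 0.25 and adjusted p = 0.0518).

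All 5 spindle genes rose. Tpx2, which activates Aurora A on spindle microtubules, was at 1.58, 0.789 and 1.29 CPM in Control_water and at 1.3, 1.29 and 1.01 CPM in Control_captopril. Its level in GN was 3.02, 5.84 and 3.31 CPM in GN_water and 1.53, 1.54 and 1.94 CPM in GN_captopril. GN_captopril overlapped the upper end of the controls, and GN_water did not (log2 fold change 1.09 with SE 0.22 and adjusted p = 0.00215). Nusap1 (chromosome 2, 119618298 to 119650165), a microtubule-bundling protein, was at 2.84, 3.16 and 2.97 CPM in Control_water and at 0.987, 1.06 and 1.06 CPM in Control_captopril. The diseased groups were at 2.98, 3.78 and 2.67 CPM in GN_water and at 3.52, 5.05 and 3.52 CPM in GN_captopril. Control_captopril alone was low, and the other 9 libraries lay between 2.67 and 5.05 CPM (log2 fold change 1.02 with SE 0.14 and adjusted p = 0.00013). Aurka, the spindle pole kinase, had a log2 fold change of 0.98 ± 0.25. Plk1, the polo kinase, had 1.04 ± 0.25, and Kif11, the motor that separates spindle poles, had 0.92 ± 0.21.

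Cytokinesis genes were less uniform, and 1 of 3 rose. Prc1, which bundles the central spindle, was at 1.12, 1.03 and 0.838 CPM in Control_water and at 1.17, 1.15 and 1.42 CPM in Control_captopril. Its GN level was 3.12, 5.26 and 3.06 CPM in GN_water and 1.93, 1.1 and 1.51 CPM in GN_captopril. GN_water stood apart, and 1 GN_captopril library lay among the controls (log2 fold change 1.10 with SE 0.20 and adjusted p = 0.00117). Kif20a, a motor of the central spindle, was at 2.28, 2.18 and 1.42 CPM in Control_water and at 2.06, 2.07 and 1.82 CPM in Control_captopril. It had 3.3, 4.4 and 2.47 CPM in GN_water and 2.06, 2.03 and 2.22 CPM in GN_captopril. GN_captopril lay within the control range (log2 fold change 0.43 with SE 0.17 and adjusted p = 0.066), and 29.3% of its exon bases lie under the opposite-strand gene Cdc23. Kif23, a motor of the central spindle and midbody, was at 1.35, 2.25 and 1.35 CPM in Control_water and at 2.65, 2.58 and 2.07 CPM in Control_captopril. In the GN groups it was at 3.3, 4.03 and 2.67 CPM in GN_water and at 2.66, 1.76 and 1.36 CPM in GN_captopril. GN_water lay above all controls, only just above Control_captopril, GN_captopril overlapped both control groups, and no change was called (log2 fold change 0.34 with SE 0.19 and adjusted p = 0.195).

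Both genes that act with the anaphase-promoting complex rose. Cdc20, its activator, was at 2.05, 1.03 and 1.35 CPM in Control_water and at 1.79, 2.16 and 1.32 CPM in Control_captopril. GN brought 3.16, 5.76 and 2.77 CPM in GN_water and 3.06, 1.97 and 1.44 CPM in GN_captopril. GN_captopril overlapped the controls widely (log2 fold change 0.83 with SE 0.25 and adjusted p = 0.0235), and without GN_water replicate 2 the change was not called (log2 fold change 0.61 with SE 0.23 and adjusted p = 0.0622). Ube2c (chromosome 2, 164769929 to 164772902), its ubiquitin-conjugating enzyme, was at 0.559, 0.546 and 0.58 CPM in Control_water and at 3.14, 2.39 and 1.97 CPM in Control_captopril. In GN it was at 5.5, 8.26 and 5.49 CPM in GN_water and at 1.33, 1.04 and 1.08 CPM in GN_captopril. Both Xist-bearing groups were higher than both Y-bearing groups, and within each marker state the GN libraries lay above the controls (log2 fold change 1.19 with SE 0.19 and adjusted p = 0.000388).

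Replication genes rose by smaller log2 fold changes. Mcm3, a subunit of the replicative helicase, was at 4.56, 3.94 and 5.16 CPM in Control_water and at 4.13, 4.47 and 4.0 CPM in Control_captopril. GN values were 8.38, 10.4 and 7.02 CPM in GN_water and 5.51, 5.54 and 5.45 CPM in GN_captopril. No GN library fell within the control range (log2 fold change 0.66 with SE 0.11 and adjusted p = 0.000555). Mcm4, another helicase subunit, was at 7.63, 7.77 and 9.28 CPM in Control_water and at 7.85, 8.7 and 7.79 CPM in Control_captopril. It was at 11, 13.4 and 10.9 CPM in GN_water and at 11.3, 9.6 and 12 CPM in GN_captopril. All GN libraries again exceeded all controls, and the 2 GN groups overlapped each other (log2 fold change 0.47 with SE 0.09 and adjusted p = 0.00116). Mcm5 (chromosome 8, 75109468 to 75128439) was at 6.33, 5.1 and 7.22 CPM in Control_water and at 3.59, 6.13 and 4.86 CPM in Control_captopril. GN libraries were at 9.16, 14.8 and 10.1 CPM in GN_water and at 6.04, 5.65 and 7.68 CPM in GN_captopril. The rise lay in GN_water, and GN_captopril overlapped Control_water (log2 fold change 0.64 with SE 0.16 and adjusted p = 0.00821).

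Mcm6 was at 29.6, 28.4 and 30 CPM in Control_water and at 26.8, 22.7 and 22.1 CPM in Control_captopril. It reached 34.2, 33.9 and 35.1 CPM in GN_water and 28.6, 28.3 and 29.1 CPM in GN_captopril. Control_captopril was lowest and GN_water highest, with Control_water and GN_captopril between them (log2 fold change 0.25 with SE 0.05 and adjusted p = 0.00222). Rrm2, the S phase subunit of ribonucleotide reductase, was at 3.86, 3.76 and 3.55 CPM in Control_water and at 4.08, 4.65 and 3.84 CPM in Control_captopril. Its GN values were 7.42, 10.4 and 6.57 CPM in GN_water and 4.25, 3.13 and 3.8 CPM in GN_captopril. GN_water alone was high (log2 fold change 0.48 with SE 0.13 and adjusted p = 0.0138). Pcna, the polymerase clamp, was at 35.2, 41.2 and 39.6 CPM in Control_water and at 44.7, 42.4 and 44.2 CPM in Control_captopril. In GN it was at 44.2, 47.4 and 44.3 CPM in GN_water and at 39.3, 39.6 and 43.1 CPM in GN_captopril. Control and GN libraries overlapped, and no change was called (log2 fold change 0.06 with SE 0.05 and adjusted p = 0.343). Mcm2 had a log2 fold change of 0.28 ± 0.08 and Mcm7 one of 0.18 ± 0.06, and without GN_water replicate 2 neither was called.

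The 2 nucleotide synthesis genes moved in opposite directions. Tyms (chromosome 5, 30038546 to 30073645), thymidylate synthase, was at 16.3, 17.5 and 15.1 CPM in Control_water and at 28.7, 26.6 and 28.5 CPM in Control_captopril. GN libraries were at 19.4, 20.6 and 16.3 CPM in GN_water and at 14.9, 14.2 and 16.4 CPM in GN_captopril. Control_captopril was higher than every other group, and Tyms fell in the GN average (log2 fold change -0.34 with SE 0.07 and adjusted p = 0.00185). Not all of its deposited counts were whole numbers, which happens where a read is divided between features. Tk1 (chromosome 11, 117815519 to 117826087), thymidine kinase, was at 5.35, 4.73 and 6.51 CPM in Control_water and at 3.45, 2.44 and 3.24 CPM in Control_captopril. GN values were 4.31, 5.84 and 3.9 CPM in GN_water and 6.04, 7.13 and 8.68 CPM in GN_captopril. Control_captopril was lowest, GN_captopril was highest on average, and Tk1 rose (log2 fold change 0.51 with SE 0.14 and adjusted p = 0.0145).

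Of the 3 genes of S phase entry, Ccne1 rose. It passed the filter on low counts through the GN libraries, with 1 control and 6 GN libraries above the cutoff, so its call is no support for a rise of the class. This cyclin E gene was at 0.326, 0.303 and 0.451 CPM in Control_water and at 0.0897, 0.368 and 0.658 CPM in Control_captopril. It was at 0.825, 1.6 and 0.741 CPM in GN_water and at 0.598, 0.603 and 1.0 CPM in GN_captopril. The lowest GN library was below the highest control (log2 fold change 1.28 with SE 0.37 and adjusted p = 0.0196), and without GN_water replicate 2 the change was not called (log2 fold change 1.03 with SE 0.37 and adjusted p = 0.0523). Ccne2, the other cyclin E gene, was at 1.4, 0.728 and 0.967 CPM in Control_water and at 1.12, 1.2 and 0.86 CPM in Control_captopril. Its GN values were 0.687, 1.52 and 1.09 CPM in GN_water and 1.46, 0.549 and 0.646 CPM in GN_captopril. The groups overlapped fully (log2 fold change -0.10 with SE 0.28 and adjusted p = 0.824). E2f1, an activating E2F factor, was at 3.49, 3.82 and 4.84 CPM in Control_water and at 2.6, 3.41 and 3.29 CPM in Control_captopril. In disease it was at 3.76, 5.59 and 4.05 CPM in GN_water and at 3.72, 4.39 and 4.52 CPM in GN_captopril. Control and GN libraries overlapped, and no change was called (log2 fold change 0.30 with SE 0.13 and adjusted p = 0.11).

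**Figure D2:**
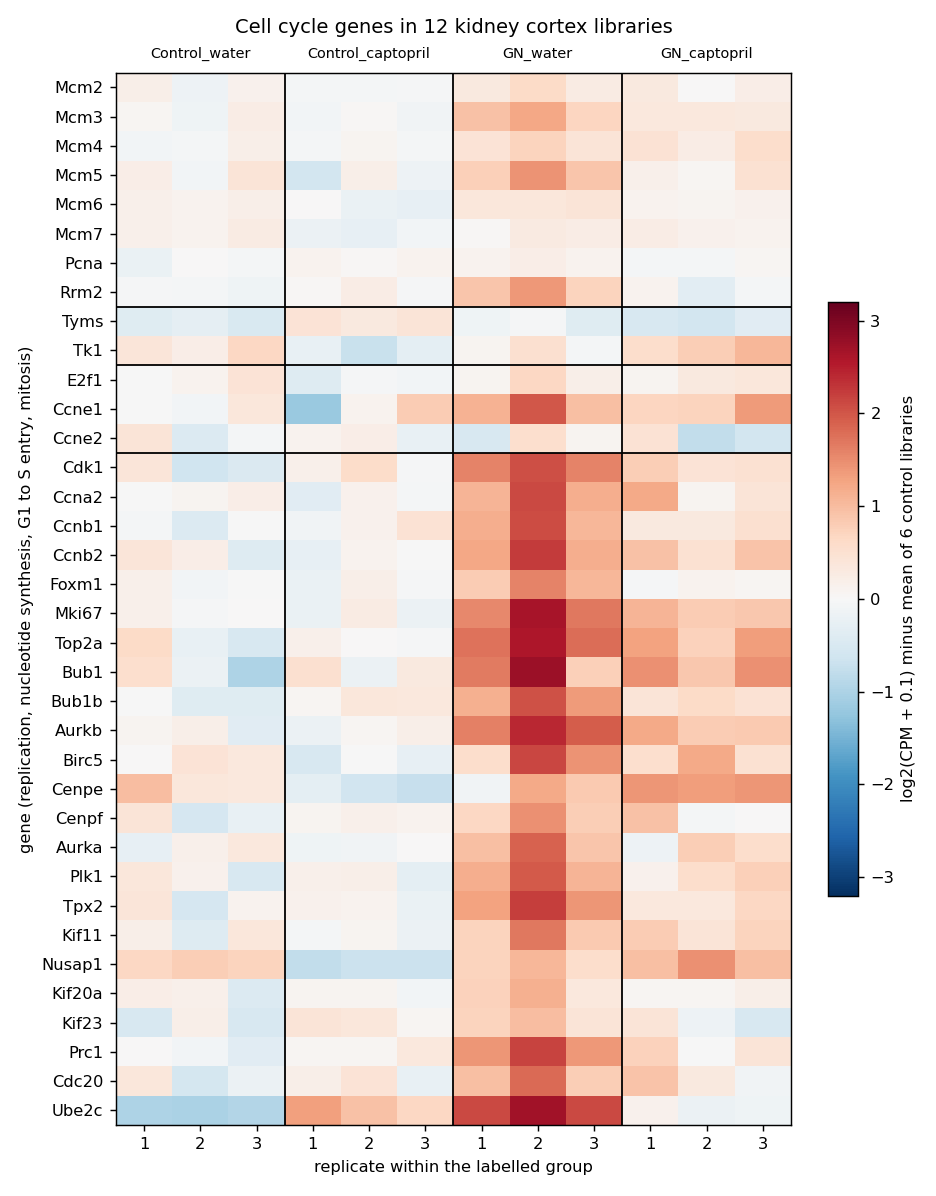
Log2(CPM + 0.1) of the 36 genes (rows, by class) in the 12 libraries (columns, by labelled group and replicate), minus the mean of the 6 control libraries; red is higher and blue lower. Mitosis rows are reddest in GN_water replicate 2, and Ube2c, Nusap1, Cenpe, Tyms and Tk1 differ between the 2 control groups.

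Averaged per library over each class, mitosis genes stood further above the controls than replication genes in every GN library. The mean log2 level of the 23 mitosis genes relative to the controls was 1.40 ± 0.474 (SD, n = 3) in GN_water and 0.577 ± 0.102 in GN_captopril. For the 8 replication genes it was 0.573 ± 0.179 in GN_water and 0.166 ± 0.0917 in GN_captopril. The mitosis score exceeded the replication score by 0.626, 1.17 and 0.685 in the GN_water libraries and by 0.484, 0.429 and 0.319 in the GN_captopril libraries. In the controls this difference lay between -0.321 and 0.120. The GN libraries thus did not overlap the controls in it, and no p is given for a score over chosen genes. Summed CPM of the mitosis genes was 30.2 ± 3.92 in Control_water, 30.7 ± 2.33 in Control_captopril, 88.4 ± 31.3 in GN_water and 47.2 ± 4.07 in GN_captopril. Replication genes started from a higher level, with summed CPM of 127.5 ± 5.54 in Control_water and 119.6 ± 1.85 in Control_captopril. Their sum was 160.2 ± 13.3 in GN_water and 133.6 ± 5.77 in GN_captopril. In GN_water replicate 2 the mitosis genes stood at a median of 1.79 times the mean of the other GN_water libraries, and the replication genes at 1.24 times.

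**Figure D3:**
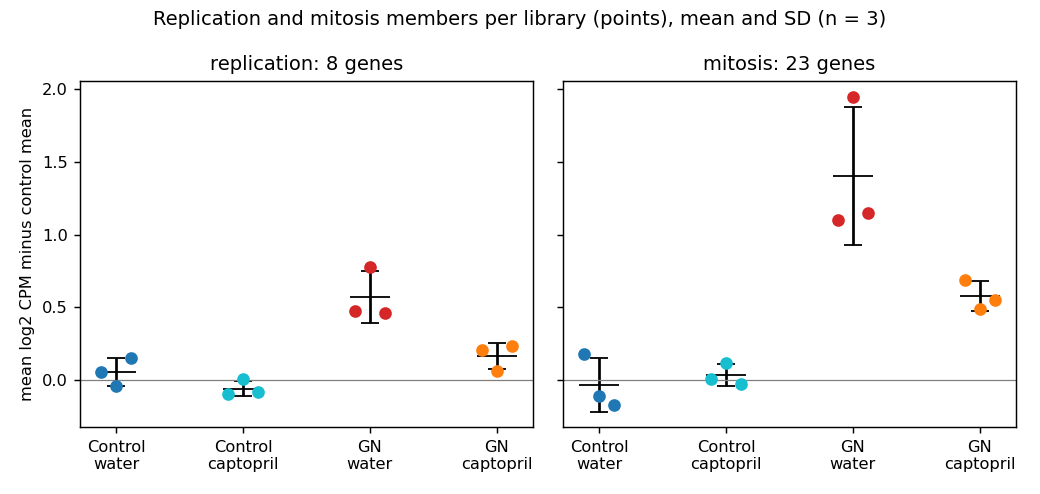
Mean log2 CPM of replication (left) and mitosis genes (right), relative to the control mean, for each library (points) with group mean and SD (n = 3). Mitosis scores average 1.40 in GN_water and 0.577 in GN_captopril, and the highest point is GN_water replicate 2.

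Other genes of replication and mitosis rose as well. Their lists too were chosen with earlier results of these data known, so the counts are no independent support. Which of these genes, and of the regulators below, passed the filter on low counts only through the GN libraries was not examined. Of 38 other replication genes tested, 20 rose and 0 fell (52.6% higher, median log2 fold change 0.34), against 16.3% higher and 14.6% lower among all genes. They included Cdc6, which loads the Mcm ring (1.78 ± 0.28), the histone chaperones Asf1b (1.58 ± 0.26) and Chaf1b (1.01 ± 0.17), and Uhrf1, which carries DNA methylation through replication (1.04 ± 0.18). Of 49 other mitosis genes, 33 rose and 1 fell (67.3% higher, median 0.82). Tacc3 of the spindle rose by 0.84 ± 0.12, Incenp of the passenger complex by 0.75 ± 0.13 and Ncapd2 of condensin by 0.55 ± 0.10. The kinetochore gene Spc25 fell (-0.55 ± 0.07). It averaged 51.9 ± 4.27 CPM in Control_captopril, 31.5 ± 2.36 in GN_water, 18 ± 1.52 in Control_water and 13.8 ± 1.25 in GN_captopril, so both Xist-bearing groups were above both Y-bearing groups.

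Lists of regulators had medians closer to 0 than the lists of other replication and mitosis genes, and their counts stand beside the same 16.3% higher and 14.6% lower among all genes. Of 14 inhibitors of cyclin-dependent kinases and p53 targets, 4 rose and 1 fell (median 0.08). Gadd45b, a stress response gene, rose by 0.71 ± 0.16, Cdkn2c, a kinase inhibitor, by 0.39 ± 0.10 and Btg2 by 0.31 ± 0.06, while Sesn2, a stress-induced sestrin, was at -0.45 ± 0.09. Of 8 G1 cyclins and kinases, 3 rose (Ccnd2 0.34 ± 0.09, Cdk2 0.24 ± 0.07, Cdk6 0.25 ± 0.08) and Ccnd1, cyclin D1, fell (-0.22 ± 0.05). Of 17 factors of the E2F, RB and DREAM families, 4 rose, among them E2f2 (0.81 ± 0.14), E2f8 (1.31 ± 0.42) and Rbl1 (0.44 ± 0.08), and Lin52 fell (-0.23 ± 0.04). Of 14 subunits and partners of the anaphase-promoting complex, 0 rose and Cdc23 fell (-0.21 ± 0.04). For that list 1 gene passed an unadjusted p of 0.05.

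Markers of leukocytes were higher in the same libraries. B and plasma cell markers summed to 6.00 to 13.5 CPM in the controls, 45.6 to 111 CPM in GN_captopril and 209 to 709 CPM in GN_water. Macrophage and monocyte markers (10 genes) summed to 149 to 218 CPM in the controls, 544 to 1070 CPM in GN_captopril and 1130 to 1580 CPM in GN_water, and all 10 rose in the GN average. T and natural killer cell markers (7 genes) summed to 4.58 to 9.71, 21.7 to 27.7 and 33.1 to 43.3 CPM in the same order. Tubular injury markers (7 genes) summed to 140 to 165, 193 to 216 and 265 to 280 CPM. Fibroblast and mesangial markers (6 genes) summed to 177 to 230, 250 to 281 and 393 to 481 CPM. No marker of these 5 lists was at 0 in any library. The part of these cells in the rise of the cell cycle genes was not tested.

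In the 2 pairs of groups alike in sex-linked markers, the changes were of unequal size. GN_water against Control_captopril, both Xist-bearing, had 32 genes higher and 1 lower, against 16.9% and 13.2% of all genes tested. The median was 1.56 over the mitosis genes, with 22 of 23 higher, and 0.53 over the replication genes, with 7 of 8 higher. Without GN_water replicate 2, 24 rose and the medians were 1.17 and 0.44. GN_captopril against Control_water, both Y-bearing, had 3 genes higher and 0 lower, against 7.05% and 5.02% of all genes. The share called higher was thus near the background. The 3 were Top2a (log2 fold change 1.09 with SE 0.32 and adjusted p = 0.0418), Aurkb (log2 fold change 1.07 with SE 0.33 and adjusted p = 0.0486) and Mcm4 (log2 fold change 0.41 with SE 0.13 and adjusted p = 0.0486), called in 10, 5 and 6 of the 19 alternative settings. Leaving out 1 library at a time left 0 to 6 higher, and the count stayed within 1.5 times only when the library left out was Control_water replicate 1, replicate 2 of GN_captopril or replicate 1 of GN_water. All 23 mitosis genes had a positive fold change there (median 0.59), and the replication median was 0.06. At an unadjusted p of 0.05, 10 of the 36 differed by edgeR and 9 by DESeq2.

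**Figure D4:**
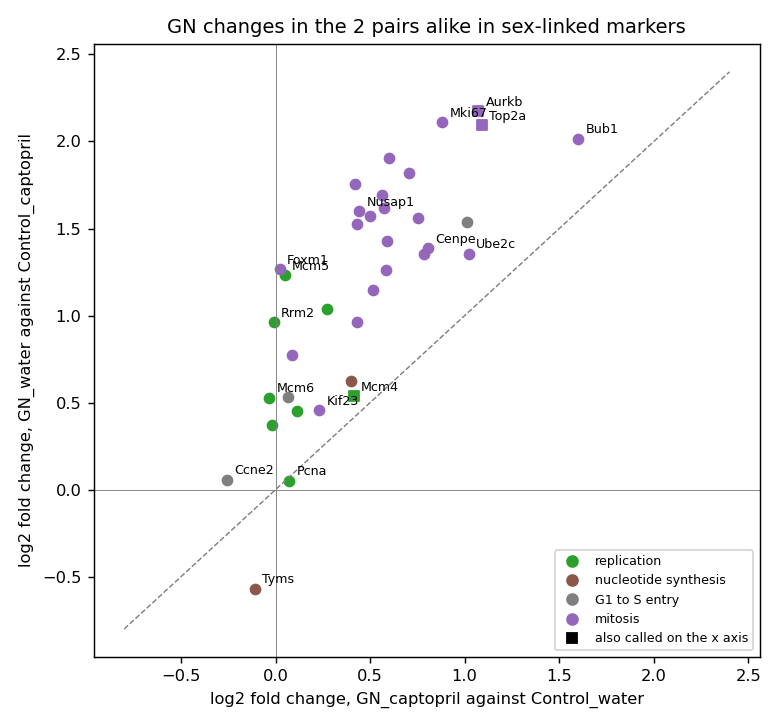
Log2 fold change of each gene in GN_captopril against Control_water (horizontal) and GN_water against Control_captopril (vertical), coloured by class; squares passed the threshold in both, and the dashed line marks equal change. Most points lie above the line, replication genes lie at a median of 0.06 on the horizontal axis, and the 3 squares are Top2a, Aurkb and Mcm4.

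The difference between those 2 changes is, up to sign and a factor of 2, captopril averaged over disease. In that average 0 genes were higher and 5 lower, against 3.17% and 3.34% of all genes tested. They were Mcm6 (log2 fold change -0.28 with SE 0.05 and adjusted p = 0.00627), Nusap1 (log2 fold change -0.58 with SE 0.14 and adjusted p = 0.0288), Rrm2 (log2 fold change -0.48 with SE 0.13 and adjusted p = 0.0438), Mcm5 (log2 fold change -0.59 with SE 0.16 and adjusted p = 0.0439) and Foxm1 (log2 fold change -0.62 with SE 0.17 and adjusted p = 0.0452). Mcm6 kept its call in all 19 alternatives, Nusap1 in 11, Mcm5 in 9, Rrm2 in 8 and Foxm1 in 7. Without GN_water replicate 2 only Mcm6 of these was called (log2 fold change -0.26 with SE 0.06 and adjusted p = 0.0224). Leaving out 1 library at a time left 1 to 5 lower, and the count of 5 moved by over 1.5 times in all 9 cases other than Control_captopril replicate 2, GN_water replicate 1 and GN_water replicate 3. Over the mitosis genes the median was -0.50 and all 23 were negative, 2 of them called. Over the replication genes the median was -0.24. Without GN_water replicate 2 these medians were -0.30 and -0.20. Markers of other cells differed in the same average. The tubular injury list had 3 of 7 genes lower, the fibroblast and mesangial list 3 of 6, the B and plasma cell list 1 of 7 (median -1.34) and the macrophage and monocyte list 1 of 10, with all 10 negative. Of the T and natural killer cell list 0 of 7 were called by edgeR, and 2 passed an unadjusted p of 0.05. Of the adrenal cortex list 3 of the 5 genes tested were higher. The part of these cells in the difference was not tested.

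The 4 comparisons between labelled groups that differ in sex-linked markers are given beside the share of all genes called in each. GN_water against Control_water had 29 of the 36 higher and 0 lower, against 27.4% and 23.9% of all genes. Here Ube2c rose by 3.50 ± 0.26 and Mki67 by 2.03 ± 0.27, while Nusap1 (0.08 ± 0.19) and Cenpe (0.15 ± 0.30) were not called. Without GN_water replicate 2, 22 rose. GN_captopril against GN_water had 1 higher and 21 lower, against 19.6% and 25.5%, and without GN_water replicate 2 it had 3 higher and 12 lower. Without GN_captopril replicate 3 it had 0 higher. Tk1 was the gene that rose (0.63 ± 0.19), and Mki67 fell by 1.15 on the log2 scale. GN_captopril against Control_captopril had 10 higher and 2 lower, against 20.5% and 19.3%. Without Control_captopril replicate 3 and GN_captopril replicate 3, the adrenal-marked libraries, 5 were higher. The 2 lower were Tyms (-0.88 ± 0.09) and Ube2c (-1.13 ± 0.25). Control_captopril against Control_water had 2 higher and 5 lower, against 15.4% and 17%. Ube2c (2.15 ± 0.28) and Tyms (0.77 ± 0.09) were higher, and Nusap1 (-1.52 ± 0.21), Cenpe (-1.24 ± 0.34), Tk1 (-0.86 ± 0.20), Mcm7 (-0.36 ± 0.08) and Mcm6 (-0.30 ± 0.07) lower. Without Control_water replicate 2, 4 were higher there.

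The interaction of GN and captopril sets Control_water and GN_captopril against Control_captopril and GN_water, which is also the split of the sex-linked markers, so the 2 cannot be told apart. It had 4 genes higher and 13 lower, against 23.6% and 27.1% of all genes tested, a share of called genes near the background. Ube2c was the most extreme (log2 fold change -4.63 with SE 0.36 and adjusted p = 2.42e-07). Tyms (-1.09 ± 0.13) and Kif23 (-1.36 ± 0.38) were also higher on average in the Xist-bearing libraries, which overlapped the Y-bearing libraries for both genes. Nusap1 (1.88 ± 0.28), Cenpe (1.89 ± 0.45) and Tk1 (1.49 ± 0.28) were higher on average in the Y-bearing libraries. For each of them Control_captopril was the lowest group, and GN_water overlapped Control_water. Cenpe was at 2.56, 1.64 and 1.61 CPM in Control_water and at 0.987, 0.783 and 0.708 CPM in Control_captopril. In GN it was at 1.15, 3.04 and 2.32 CPM in GN_water and at 3.52, 3.29 and 3.52 CPM in GN_captopril. GN_captopril was highest and Control_captopril lowest, with no overlap between those 2.

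Of the 36 genes, 10 share exon bases with a gene on the opposite strand. Whether the authors counted reads by strand is not given in the sources used here. Ube2c shares 22.8% of its exon bases with Tnnc2 on the opposite strand, and Tnnc2 had at most 1 count in any library. Nusap1 shares 4.24% with Oip5, which averaged 0.711 CPM in Control_water and 0.233 CPM in Control_captopril. Tk1 shares 1.60% with Afmid, which averaged 103 CPM in Control_water and 107 CPM in GN_captopril but 59.6 CPM in Control_captopril and 43.8 CPM in GN_water. Other neighbours far above the level of their member included Cdc23, over 29.3% of Kif20a, with group means of 23.9 to 33.1 CPM. Ints8, over 17.4% of Ccne2, averaged 21.6 to 26.9 CPM by group. Exosc9, over 12.5% of Ccna2, averaged 18.5 to 20.9 CPM. Elovl1, over 2.84% of Cdc20, averaged 97.2 to 138 CPM. The part of reads from Afmid and these other neighbours in the member values was not tested.

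**Figure D5:**
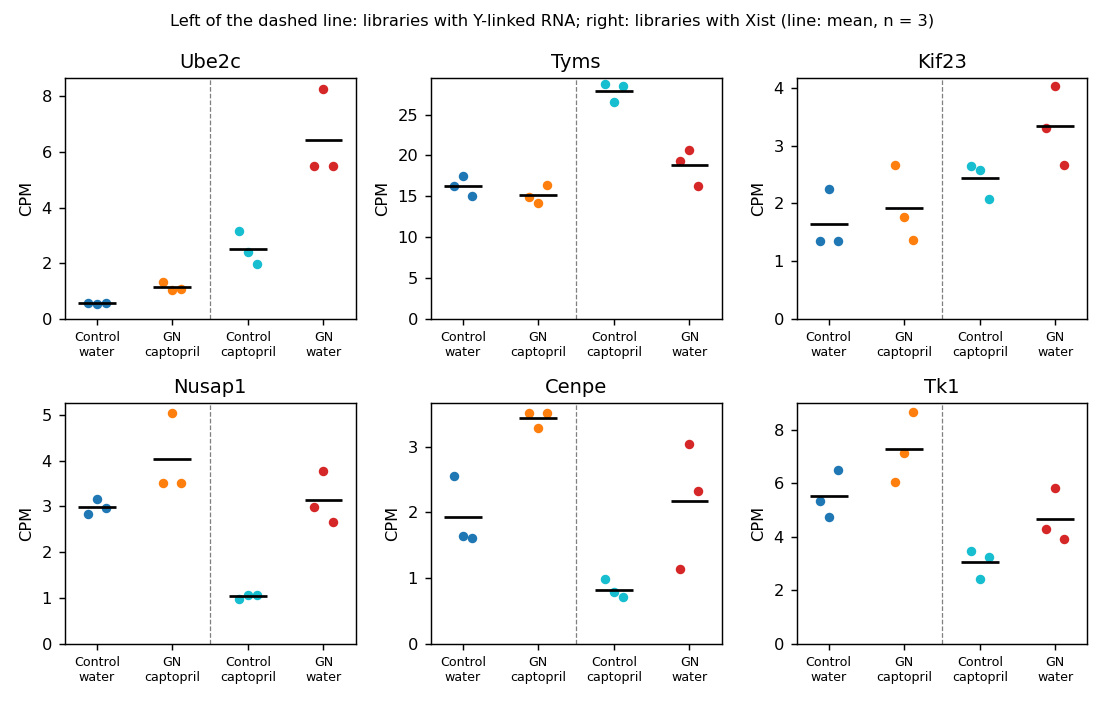
CPM (vertical axes, from 0) of Ube2c, Tyms, Kif23, Nusap1, Cenpe and Tk1 in each library (points) with the group mean (line, n = 3); Y-bearing groups are left of the dashed line and Xist-bearing groups right. Ube2c lies at 0.546 to 1.33 CPM on the left and 1.97 to 8.26 CPM on the right, and Nusap1 is lowest in Control_captopril.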

How the data were processed

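The 36 members, their classes, the further pathway lists and the cell type markers were chosen with earlier results of these data known. The authors made and deposited expected counts, estimated counts of reads per gene symbol with no scaling for depth. Per the submitters' processing notes Bowtie2, Partek and the mm10 genome were used, and neither versions nor annotation nor strand setting is given in the sources used here. Of the entries 87% were whole (tolerance 1e-06), and all were rounded. The deposited RPKM table was not used. Groups came from the labels. Genes passed edgeR's filterByExpr (minimum count 10, minimum total 15), which left 14618. TMM factors and quasi-likelihood fits (edgeR 4.0.16, R 4.3.3) gave 1 mean per group over 12 libraries, and the Benjamini-Hochberg adjustment took in every tested gene of a comparison (9 comparisons, threshold 0.05). SE is the log2 fold change divided by the square root of F. Class scores are means of log2 CPM (prior count 2). Depth was 14.2 to 22.8 M counts. The fit was tested on simulated data with 1 dispersion for all genes. Changes of 1 or 2 on the log2 scale were set there in genes averaging above 1 CPM. Changes in genes of lower level, and smaller changes, were not covered. Alternatives were DESeq2 1.42.0, RLE and upper-quartile factors, other filters, a block on title numbers, 2 adrenal-marked libraries left out, and each library left out. Per-library values are given for the 2 genes of each role with the smallest adjusted p in the GN average and for genes lower in GN, not called there, or called in the captopril average; Cenpe was added after its values were seen. Of each further list, up to 4 called genes by smallest adjusted p and all called lower were named. No pairing of libraries by title number was seen. Figures used matplotlib 3.10.9 under Python 3.11.15.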

Additional observations from a re-analysis of the deposited data

Results flagged for a closer look

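The changes in GN differed between the water and captopril labels for 17 genes by the interaction term of the edgeR fit, a split that is also that of the sex-linked markers. The interaction was negative for Ube2c (-4.63), Cdk1 (-1.66), Prc1 (-1.66), Bub1b (-1.63), Ccnb1 (-1.59), Kif23 (-1.36), Rrm2 (-1.31), Tpx2 (-1.25), Aurkb (-1.17), Foxm1 (-1.15), Tyms (-1.09), Mki67 (-1.06) and Pcna (-0.34). It was positive for Cenpe (1.89), Nusap1 (1.88), Tk1 (1.49) and Mcm7 (0.33). Of these, Aurkb kept its call in 7, Mki67 in 12, Tpx2 in 13 and Mcm7 in 15 of the 19 alternative settings, and the other 13 in all of them. The share of genes called by this term was near that of all genes tested.

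The GN change of the Xist-bearing pair exceeded that of the Y-bearing pair for 5 genes, by 1.24 for Foxm1, 1.18 for Mcm5, 1.16 for Nusap1, 0.97 for Rrm2 and 0.56 for Mcm6 on the log2 scale. Mcm6 alone kept this call in all 19 alternatives.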

How the results depend on the processing

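The counts of genes higher (29) and lower (1) in the GN average stayed within 1.5 times under all 19 alternatives. Over the 36 genes in the GN average, the captopril average and the interaction, the comparisons in which single genes were followed through the alternatives, no called change reversed its sign. Single genes of the other comparisons and lists were not followed. Captopril averaged over disease had 1 gene higher instead of 0 with DESeq2 and with RLE factors, and 1 lower instead of 5 without the 2 adrenal-marked libraries. Without those 2 libraries, GN_captopril against GN_water had 0 higher, GN_captopril against Control_captopril 5 higher and GN_captopril against Control_water 0 higher. GN_captopril against Control_water had 1 higher with no filter on low counts and 1 with a replicate block. The block used the title numbers. Libraries of the same number correlated between -0.235 and 0.236 in their deviations from group means, and libraries of other numbers between -0.28 and 0.297. No pairing by number was seen, and so wide a spread cannot tell a weak pairing from none. The block moved no other count of members by over 1.5 times. Leaving out each library in turn gave 0 to 1 higher and 1 to 5 lower for captopril averaged over disease, and 2 to 4 higher for Control_captopril against Control_water. It gave 0 to 3 higher and 12 to 23 lower for GN_captopril against GN_water, and 0 to 6 higher for GN_captopril against Control_water. The cause of these moves was not tested. Upper-quartile factors changed the split of called genes in the GN average from 2378 higher and 2138 lower to 2762 and 1383. Genes with few counts, such as Bub1 and Ccne1, have the widest errors.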
